A study of Homo sapiens with 12 samples.

Results

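The HOX cluster genes were taken as every listed symbol made of HOXA, HOXB, HOXC or HOXD followed by digits alone. There were 39 such symbols among 26485 listed, namely 11 HOXA, 10 HOXB, 9 HOXC and 9 HOXD genes. They were followed in messenger RNA sequencing counts of A549, a human lung adenocarcinoma line, and BEAS-2B (B2B), a bronchial epithelial line immortalised with SV40 antigens. Cells of each line received SR11302 at 10 µM (a retinoid-like blocker of AP-1, the Jun and Fos transcription factors) or SP600125 at 50 µM (which blocks JNK, the kinases of Jun) over 72 h, or were left as NT, no treatment. The 6 groups, A549_SR11302, A549_SP600125, A549_NT, B2B_SR11302, B2B_SP600125 and B2B_NT, held 2 libraries each. The inhibitors were dissolved in DMSO, and the sources used here do not settle whether NT cells received that solvent or whether the 2 libraries of a group came from separate cultures.

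HOX genes encode homeodomain transcription factors that give cells positional identity along the body axis. Each cluster is a row of genes read in the same direction, numbered from its 3′ end (anterior, retinoic acid responsive) to its 5′ end (posterior). Adult cells keep part of their HOX code, under Polycomb and Trithorax control, and HOX proteins bind DNA together with PBX and MEIS partners.

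In the GENCODE v44 annotation of hg38, HOXA2 to HOXA13 covered chromosome 7 from 27100354 to 27200091 on the minus strand, and HOXB1 to HOXB13 chromosome 17 from 48528526 to 48728750 on the minus strand. HOXC4 to HOXC13 covered chromosome 12 from 53938831 to 54056030 on the plus strand, and HOXD1 to HOXD13 chromosome 2 from 176092721 to 176190907 on the plus strand. Several members overlap a neighbour, and the strand setting of the counting is not given in the sources used here, so shared reads cannot be told apart. Exons shared with an antisense RNA made up 62.5% of HOXA7, 39.3% of HOXA6, 27.2% of HOXA11 and 24.4% of HOXD8. HOXC4 and HOXC6 overlapped each other on 1 strand over 17.5% of the HOXC4 exons, and 16.1% of the HOXC6 exons lay under HOXC4 or HOXC9. In HOXB, HOXB3 shared 16.6% of the HOXB6 exons and 2.2% of the HOXB4 exons on the same strand.

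RefSeq (GRCh38.p14) promoter windows, 250 bases before to 50 after a start site, were matched for 20 of the 39 genes, 27 windows in all. The following windows are shown because they belong to members described next: HOXA2 and HOXA4, which were read almost only or only in A549, HOXD8, the highest HOXD gene, and the start that HOXC4 and HOXC5 share. Capitals mark CCAAT and TGATTGAT, a sequence that HOX and PBX proteins can bind together, on either strand, and the HOXD8 window holds neither. The windows lie at chr7:27102634-27102933 (minus strand), chr7:27130708-27131007 (minus strand), chr2:176129455-176129754 (plus strand) and chr12:54016638-54016937 (plus strand).
HOXA2: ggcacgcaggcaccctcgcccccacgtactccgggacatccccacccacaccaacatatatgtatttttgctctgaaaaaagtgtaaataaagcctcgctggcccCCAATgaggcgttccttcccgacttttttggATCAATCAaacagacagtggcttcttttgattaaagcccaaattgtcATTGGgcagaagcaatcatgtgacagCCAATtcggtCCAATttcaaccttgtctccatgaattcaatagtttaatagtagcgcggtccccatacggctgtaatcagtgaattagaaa
HOXA4: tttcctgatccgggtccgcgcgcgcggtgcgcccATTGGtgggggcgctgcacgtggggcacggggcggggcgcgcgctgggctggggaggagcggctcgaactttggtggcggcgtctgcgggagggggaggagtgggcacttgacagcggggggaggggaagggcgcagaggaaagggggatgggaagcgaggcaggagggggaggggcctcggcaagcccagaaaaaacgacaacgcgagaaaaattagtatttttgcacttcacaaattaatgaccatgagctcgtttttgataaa
HOXD8: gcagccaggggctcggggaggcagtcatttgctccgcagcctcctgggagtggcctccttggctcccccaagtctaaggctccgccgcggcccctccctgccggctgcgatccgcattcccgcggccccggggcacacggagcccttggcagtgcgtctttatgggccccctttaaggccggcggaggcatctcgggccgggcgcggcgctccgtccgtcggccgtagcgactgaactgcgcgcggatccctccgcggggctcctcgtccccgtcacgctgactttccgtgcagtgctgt
HOXC4/HOXC5: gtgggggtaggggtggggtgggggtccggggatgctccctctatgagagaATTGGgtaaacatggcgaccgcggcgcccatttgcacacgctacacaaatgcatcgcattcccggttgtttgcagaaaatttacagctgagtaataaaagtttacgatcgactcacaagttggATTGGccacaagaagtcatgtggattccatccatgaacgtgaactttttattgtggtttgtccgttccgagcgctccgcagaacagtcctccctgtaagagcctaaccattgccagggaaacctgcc
The letters CCAAT stood in 18 of the 27 HOX windows (66.7%), against 34.6% of all 35116 windows. TGATTGAT stood in 2, those of HOXA2 and HOXD11 (7.41%, against 0.484% of all windows). The AP-1 motif TGANTCA stood in none of the 27 and in 7.71% of all windows, and the related TGACGTCA in none and in 1.85%. No window was matched for HOXA5, HOXB2 to HOXB13 or HOXC6 to HOXC13, so the motif search did not cover them. Both strands were searched, and the 1 window that HOXC4 and HOXC5 share was counted for each of them. The median ratio of observed to expected CpG was 0.849 in the HOX windows and 0.579 in all windows, at a median GC content of 58.0% and 58.7%.

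Libraries held 13969766 to 24917854 reads in genes, and 1 read was worth 0.0407 to 0.0745 CPM (reads scaled to a common library size by TMM). HOX genes together took 2378 to 5002 reads per library. Reads in no annotated gene made up 14.6 to 20.1% of the tallied reads in treated libraries and 23.8 to 25.9% in NT libraries, and their part in the treatment results was not tested. The second NT library of each line stood slightly apart. Genes particular to B2B in the treated libraries reached 0.369% of their B2B level in A549_NT replicate 2 and 0.0595% in replicate 1, and genes particular to A549 reached 0.615% of their A549 level in B2B_NT replicate 2 and 0.0265% in replicate 1. All 5 epithelial markers were higher in A549_NT than in B2B_NT and all 7 mesenchymal markers lower, the mesenchymal markers summing to 894 to 963 CPM in A549_NT and 8774 to 8999.7 CPM in B2B_NT. Of the 7 alveolar type 2 markers, SFTPC, SFTPA1 and SFTPA2 averaged at most 0.146 CPM in every group, while ABCA3 was read in every library and the 7 summed to 63.7 to 75.3 CPM in A549_NT and 48.2 to 49.3 CPM in B2B_NT. Of the 4 leukocyte markers, CD3E averaged at most 0.146 CPM in every group, while CD68 was read in every library and the 4 summed to 43.9 to 47.9 CPM in A549_NT and 11.3 to 11.6 CPM in B2B_NT.

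The lines carried different HOX codes, with HOXA and HOXD reads nearly confined to A549. HOXA genes took 31.3 to 40.7% of all HOX reads in the 6 A549 libraries and 0.289 to 2.78% in the 6 B2B libraries. HOXD genes took 3.24 to 7.62% in A549 and at most 0.135% in B2B. HOXC genes took 19.3 to 24.7% in A549 and 52.7 to 68.1% in B2B, whereas the HOXB shares overlapped, at 31.9 to 37.5% in A549 and 31.6 to 45.7% in B2B. In bulk RNA, fewer cells with a transcript and less transcript per cell cannot be told apart.

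**Figure D1:**
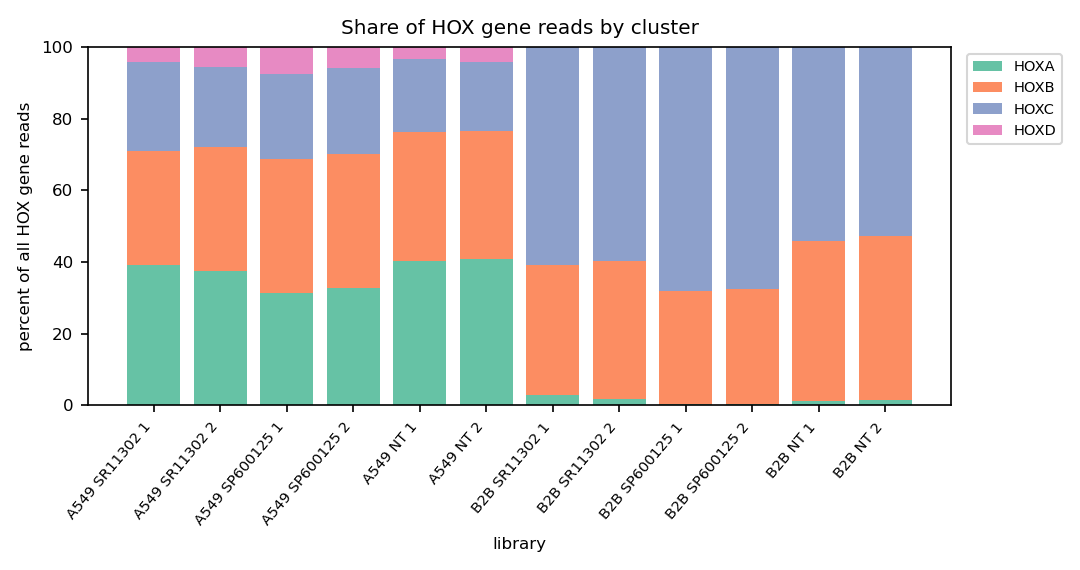
Share of all HOX gene reads (percent, vertical axis) taken by each of the 4 clusters in each of the 12 libraries. HOXA fills 31.3 to 40.7% of the A549 bars and at most 2.78% of the B2B bars, where HOXC fills 52.7 to 68.1%.

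Over the 6 libraries of each line, 34 members had a read in every A549 library and 20 in every B2B library. HOXD12 was the only member with no read in A549, while 11 had none in B2B (HOXA4, HOXA7, HOXA9, HOXB1, HOXD1, HOXD3, HOXD9, HOXD10, HOXD11, HOXD12 and HOXD13). At least 1 CPM in every library of a line was reached by 20 members in A549 and 13 in B2B. A filter on low counts left 31 members for testing (10 HOXA, 9 HOXB, 9 HOXC and 3 HOXD). Of these 31, 17 lay in all 6 A549 libraries above all 6 B2B libraries, as did 20.1% of all genes tested, 7 lay wholly below, as did 17.9% of all genes tested, and 7 overlapped. The other 8 members were not tested: HOXA9, HOXB1, HOXD1, HOXD3, HOXD10, HOXD11, HOXD12 and HOXD13. None of these 8 exceeded 0.820 CPM in any library. Members read almost only in A549 passed the filter through A549, so if called they had to be higher there, and the counts of calls are a description only.

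Calls used edgeR's quasi-likelihood test, with p-values adjusted after Benjamini and Hochberg over all 16373 genes tested, and required an adjusted p under 0.05 and a log2 fold change of 0.5 or more in either direction. Without treatment, 25 of the 31 tested members were called between A549_NT and B2B_NT, 18 higher and 7 lower in A549_NT, where 56.9% of all genes tested were called (30.4% higher, 26.5% lower). The median log2 fold change over the 31 was 2.20 in A549_NT over B2B_NT (2.14 with the 4 members without reads in B2B_NT at their lower bound), against 0.05 over all genes tested. By cluster, 9 of 10 HOXA genes, 6 of 9 HOXB genes and 3 of 3 HOXD genes were higher in A549_NT, while 5 of 9 HOXC genes were lower. Under SR11302, 28 were called, 19 higher and 9 lower in A549_SR11302 (background 56.5%, 29.9% higher and 26.6% lower). Under SP600125, 28 were called, 18 higher and 10 lower in A549_SP600125 (background 58.2%, 30% higher and 28.2% lower). Called higher in A549 in all 3 were 17 members, among them HOXA2 to HOXA7, HOXA10, HOXA13, HOXB5, HOXB6, HOXB8, HOXB9, HOXB13, HOXD4, HOXD8 and HOXD9. Called lower in all 3 were 7, namely HOXB2, HOXB4, HOXC5, HOXC6, HOXC8, HOXC11 and HOXC12.

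**Figure D2:**
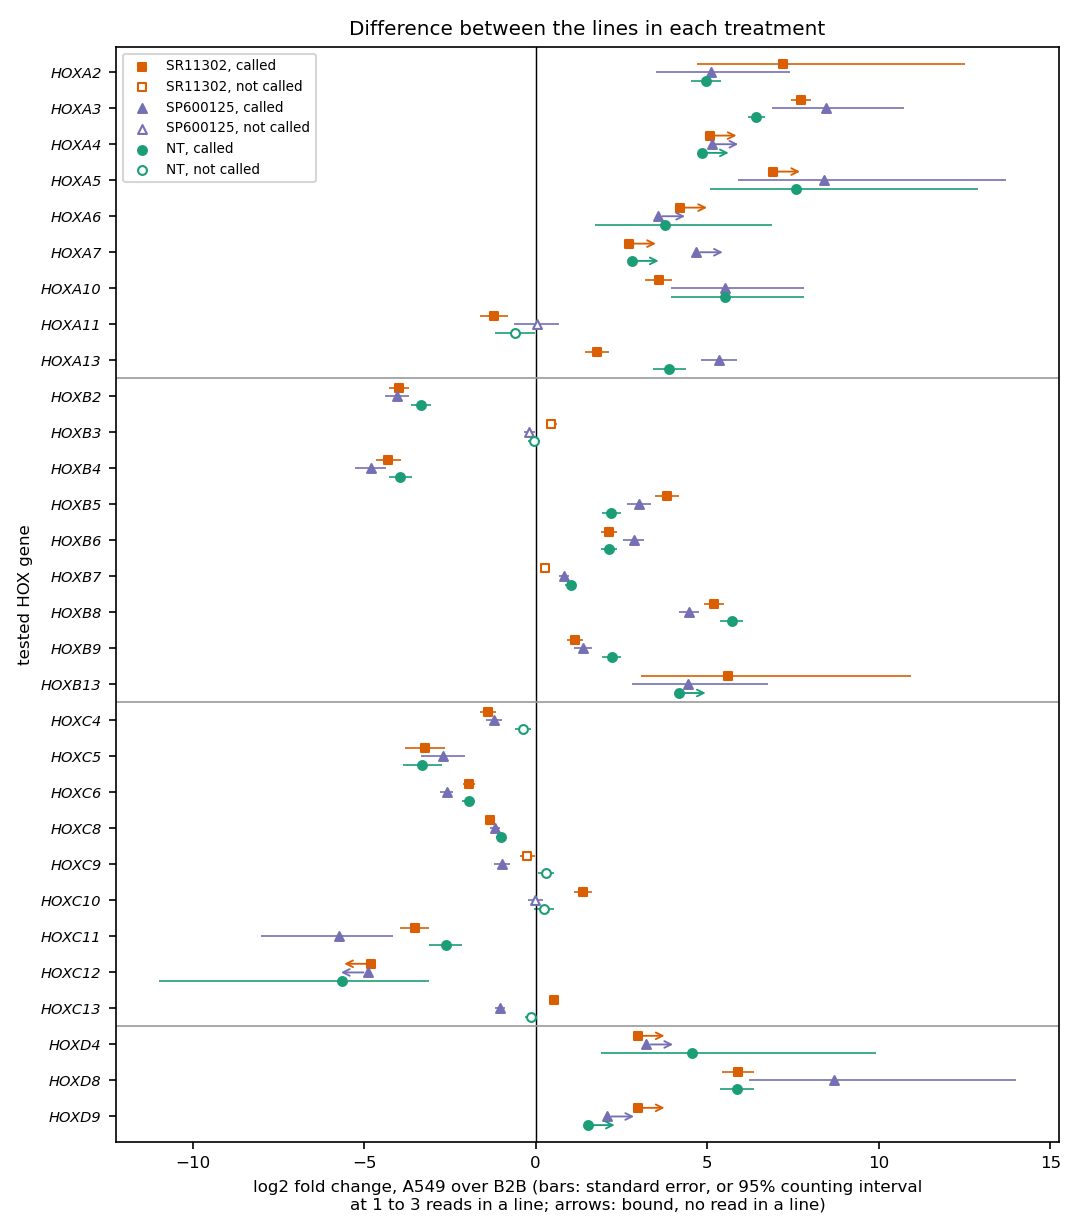
Log2 fold change of A549 over B2B (horizontal axis) for tested HOX genes under SR11302, SP600125 and NT. Filled symbols were called, bars are standard errors or, at 1 to 3 reads in a line, 95% counting intervals, and arrows start at the bound where a line had no read. HOXA and HOXD genes lie right of 0 except HOXA11, HOXB2 and HOXB4 lie left and HOXB5 to HOXB9 right, and HOXC5, HOXC6, HOXC8, HOXC11 and HOXC12 lie left.

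The 3′ HOXA genes were among the clearest marks of A549, beside HOXA10, HOXB8 and HOXD8. HOXA3, which patterns the pharyngeal arches and their glands in the mouse, had 53.0 and 50.4 CPM in A549_NT, against 0.527 and 0.651 CPM in B2B_NT. The log2 fold change was 6.43 ± 0.25 (SE, 2 libraries per group; edgeR adjusted p = 4.63e-11). In B2B_NT it stood at 1.02 and 1.26% of its A549_NT mean, above the traces of A549-particular genes in both libraries. HOXA3 was also the highest member per transcript length in A549_NT, at 17.1 CPM per kb, followed by HOXB7 at 15.2 and HOXC9 at 6.32 CPM per kb. HOXA2, a hindbrain and branchial arch gene, had 3.56 and 3.66 CPM in A549_NT, against 0.0479 and 0.163 CPM in B2B_NT. The HOXA2 libraries of the lines were far apart, with a log2 fold change of 4.96 ± 0.44.

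HOXA4 had 2.06 and 1.75 CPM in A549_NT and no read in any B2B library, which made it at least 28.8-fold higher in A549_NT (3 reads over the B2B_NT group as the floor). HOXA5, needed for lung development in the mouse, had 4.84 and 3.66 CPM in A549_NT, against 0 and 0.0407 CPM in B2B_NT, where 1 read was counted in all, a ratio of 193 (95% counting interval 34.0 to 7652). HOXA6 reached 0.723 and 0.478 CPM in A549_NT, against 0 and 0.0814 CPM in B2B_NT. HOXA7 had 0.556 and 0.372 CPM in A549_NT and no read in B2B_NT, at least 6.99-fold higher in A549_NT. Most of the rest of the cluster followed the same order up to its 5′ end. HOXA9 left a gap, with 1 and 3 reads in A549_NT and no read in B2B, and was not tested. HOXA10, a gene of the uterus and posterior axis, had 3.06 and 3.03 CPM in A549_NT, against 0.0479 and 0.0814 CPM in B2B_NT. HOXA13, a distal limb and hindgut gene, had 3.11 and 3.66 CPM in A549_NT, against 0.383 and 0.0814 CPM in B2B_NT, a log2 fold change of 3.90 ± 0.47. HOXA11 was the exception among the tested HOXA genes. In NT cells it had 0.278 and 0.212 CPM in A549_NT, against 0.335 and 0.407 CPM in B2B_NT, and was not called (-0.60 ± 0.58). Under SR11302 it was called lower in A549, with 0.437 and 0.544 CPM in A549_SR11302, against 1.27 and 1.01 CPM in B2B_SR11302 (-1.22 ± 0.41). That call was lost without A549_SR11302 replicate 1 (-1.08) or B2B_SR11302 replicate 1 (-1.03), and with DESeq2 (-1.23, DESeq2 adjusted p = 0.151).

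The HOXB cluster was split between HOXB4 and HOXB5. HOXB2, another hindbrain gene, had 1.56 and 1.27 CPM in A549_NT, against 13.9 and 14.8 CPM in B2B_NT (-3.34 ± 0.28). HOXB4, known for expanding blood stem cells, had 0.667 and 0.850 CPM in A549_NT, against 11.6 and 11.9 CPM in B2B_NT (-3.94 ± 0.34). Numbered between them, HOXB3 had 11.1 and 11.1 CPM in A549_NT, against 11.3 and 11.6 CPM in B2B_NT (-0.05 ± 0.17, edgeR adjusted p = 0.808). Its annotated span encloses HOXB4. HOXB3 was not called in any of the 3 comparisons between the lines.

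From HOXB5 to HOXB13 the order was reversed. HOXB5 had 4.95 and 4.25 CPM in A549_NT, against 1.05 and 0.936 CPM in B2B_NT (2.20 ± 0.28). HOXB6 had 10.4 and 8.66 CPM in A549_NT, against 2.16 and 2.16 CPM in B2B_NT (2.14 ± 0.23). HOXB7 was high in both lines, with 21.3 and 20.02 CPM in A549_NT, against 8.81 and 11.5 CPM in B2B_NT (1.02 ± 0.15). HOXB8, a regulator of myeloid progenitors, stood much farther apart. It had 7.84 and 6.64 CPM in A549_NT, against 0.0958 and 0.163 CPM in B2B_NT (5.71 ± 0.35). HOXB9 had 8.73 and 9.35 CPM in A549_NT, against 1.68 and 2.16 CPM in B2B_NT (2.22 ± 0.28). HOXB13, the prostate and hindgut member at the far 5′ end, had 0.945 and 1.43 CPM in A549_NT and no read in B2B_NT, at least 18.1-fold higher in A549_NT.

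In HOXC, 5 of 9 genes were called lower in A549_NT and 4 were not called. HOXC8, a thoracic gene, had 12.8 and 11.5 CPM in A549_NT, against 24.6 and 24.5 CPM in B2B_NT (-1.01 ± 0.14), and was the highest member per length in B2B_NT at 10.2 CPM per kb. HOXC6 had 3.78 and 3.50 CPM in A549_NT, against 13.6 and 14.6 CPM in B2B_NT (-1.95 ± 0.18). HOXC5 had 0.389 and 0.0531 CPM in A549_NT, against 2.25 and 2.16 CPM in B2B_NT (-3.30 ± 0.57). These neighbours were lower in A549_NT by unequal amounts. HOXC11 had 0.111 and 0.212 CPM in A549_NT, against 1.15 and 0.936 CPM in B2B_NT (-2.62 ± 0.47). HOXC12 had 1 read in the A549_NT group, against 1.34 and 1.38 CPM in B2B_NT, and none in the treated A549 libraries. It was at least 27.9-fold lower in A549_SR11302 than in B2B_SR11302 and at least 29.8-fold lower in A549_SP600125 than in B2B_SP600125. The other HOXC genes did not pass the test in NT cells. HOXC4 had 2.95 and 3.50 CPM in A549_NT, against 4.31 and 3.99 CPM in B2B_NT. HOXC9, tied to thoracic motor neuron identity in the mouse, had 10.7 and 7.96 CPM in A549_NT, against 6.66 and 8.39 CPM in B2B_NT. HOXC10 had 1.22 and 1.75 CPM in A549_NT, against 1.15 and 1.34 CPM in B2B_NT. The HOXC9 and HOXC10 values of the lines overlapped. HOXC13, a hair and nail gene, had 6.17 and 5.63 CPM in A549_NT, against 6.61 and 6.43 CPM in B2B_NT (-0.14 ± 0.16, edgeR adjusted p = 0.442).

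In HOXD only HOXD8 was well read. It had 5.28 and 5.63 CPM in A549_NT, against 0 and 0.163 CPM in B2B_NT (5.86 ± 0.50). HOXD4 and HOXD9 stayed under 1 CPM and were called in all 3 comparisons between the lines. Neither was tested with the filter of at least 1 CPM in 2 libraries. HOXD9 had 7 reads in A549_NT and none in B2B_NT, at least 2.88-fold higher in A549_NT. The HOXD4 call was lost when the second NT library of both lines was left out (edgeR adjusted p = 0.0865). The HOXD9 call in NT cells was lost without A549_NT replicate 2, B2B_NT replicate 1 or B2B_NT replicate 2. It was also lost with DESeq2 (DESeq2 adjusted p = 0.0591) and with the replicate block (edgeR adjusted p = 0.0533). Its call under SP600125 was lost without A549_SP600125 replicate 1 (adjusted p = 0.143) or either B2B_SP600125 library (adjusted p = 0.073 without replicate 1 and 0.056 without replicate 2). HOXD1, HOXD3, HOXD10, HOXD11 and HOXD13 were read at up to 0.820 CPM in A549 libraries and not at all in B2B.

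Treatment changed fewer members than line identity did, as it did over all genes tested, of which 56.5 to 58.2% were called between the lines. SR11302 in A549 changed 5 of 31 tested members, each upward, where 27.8% of all genes tested were called (14.8% higher, 13% lower). SP600125 in A549 raised 8 and lowered 2, where 48.8% were called (23.9% higher, 25% lower). SR11302 in B2B raised 5 and lowered 1, where 22.5% were called (11.4% higher, 11.1% lower), and SP600125 in B2B raised 11 and lowered 4, where 43.8% were called (21.2% higher, 22.6% lower). With library size alone as the scaling, the B2B splits were 8 higher and 1 lower for SR11302 and 11 higher and 2 lower for SP600125. The A549 count under SR11302 was 3 without A549_NT replicate 2. The B2B count was 3 under SR11302 without B2B_NT replicate 1, and 9 under SP600125 without B2B_NT replicate 1 or B2B_SP600125 replicate 1. Over members with reads above the floor, the median log2 fold change was 0.12 in A549_SR11302, 0.42 in A549_SP600125, 0.44 in B2B_SR11302 and 0.26 in B2B_SP600125 over the NT cells of the line, against 0.02, 0.02, 0.01 and 0.01 over all genes tested. The comparisons within a line share their NT libraries. In all, 11 tested members were called under no treatment: HOXA2, HOXA4, HOXA6, HOXA10, HOXB2, HOXB4, HOXB13, HOXC5, HOXC8, HOXD4 and HOXD9. Endothelial markers moved with SP600125, 4 of 4 tested being higher in A549_SP600125 and 3 of 4 in B2B_SP600125, with a summed level of 16.3 to 16.8 CPM in A549_SP600125 and 0.278 to 0.319 CPM in A549_NT, and of 7.85 to 11.0 CPM in B2B_SP600125 and 1.34 to 1.38 CPM in B2B_NT. Mesenchymal markers summed to 7311 to 7366 CPM in B2B_SR11302, 2458 to 2742 CPM in B2B_SP600125 and 8774 to 8999.7 CPM in B2B_NT. Bronchial basal markers summed to 242 to 296 CPM in B2B_SR11302, 38.9 to 59.2 CPM in B2B_SP600125 and 389 to 419 CPM in B2B_NT. KRT17 carried nearly all of these sums, with 8105 and 10273 reads in B2B_NT, where each other basal marker had at most 4 reads per library. Of the 3 basal markers tested, 2 were called higher and 1 lower in A549_NT than in B2B_NT (30.4% and 26.5% of all genes tested). Epithelial markers, led by KRT8 and KRT18, summed to 5379 to 6413 CPM in A549_SR11302, 5075 to 5092 CPM in A549_SP600125 and 11653 to 13398 CPM in A549_NT. After either inhibitor 4 of 5 were called lower. The remaining marker, CDH1, went the other way under SP600125. It had 1998 and 2753 reads in A549_SR11302, 5877 and 5520 in A549_SP600125, and 2193 and 2414 in A549_NT. In B2B the epithelial markers summed to 543 to 633 CPM under SR11302, 400.3 to 436 CPM under SP600125 and 781 to 869.9 CPM under NT. Leukocyte markers, led by CD68, summed to 3.35 to 3.52 CPM in A549_SP600125 and 43.9 to 47.9 CPM in A549_NT. The part of these markers in the HOX results was not tested.

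**Figure D3:**
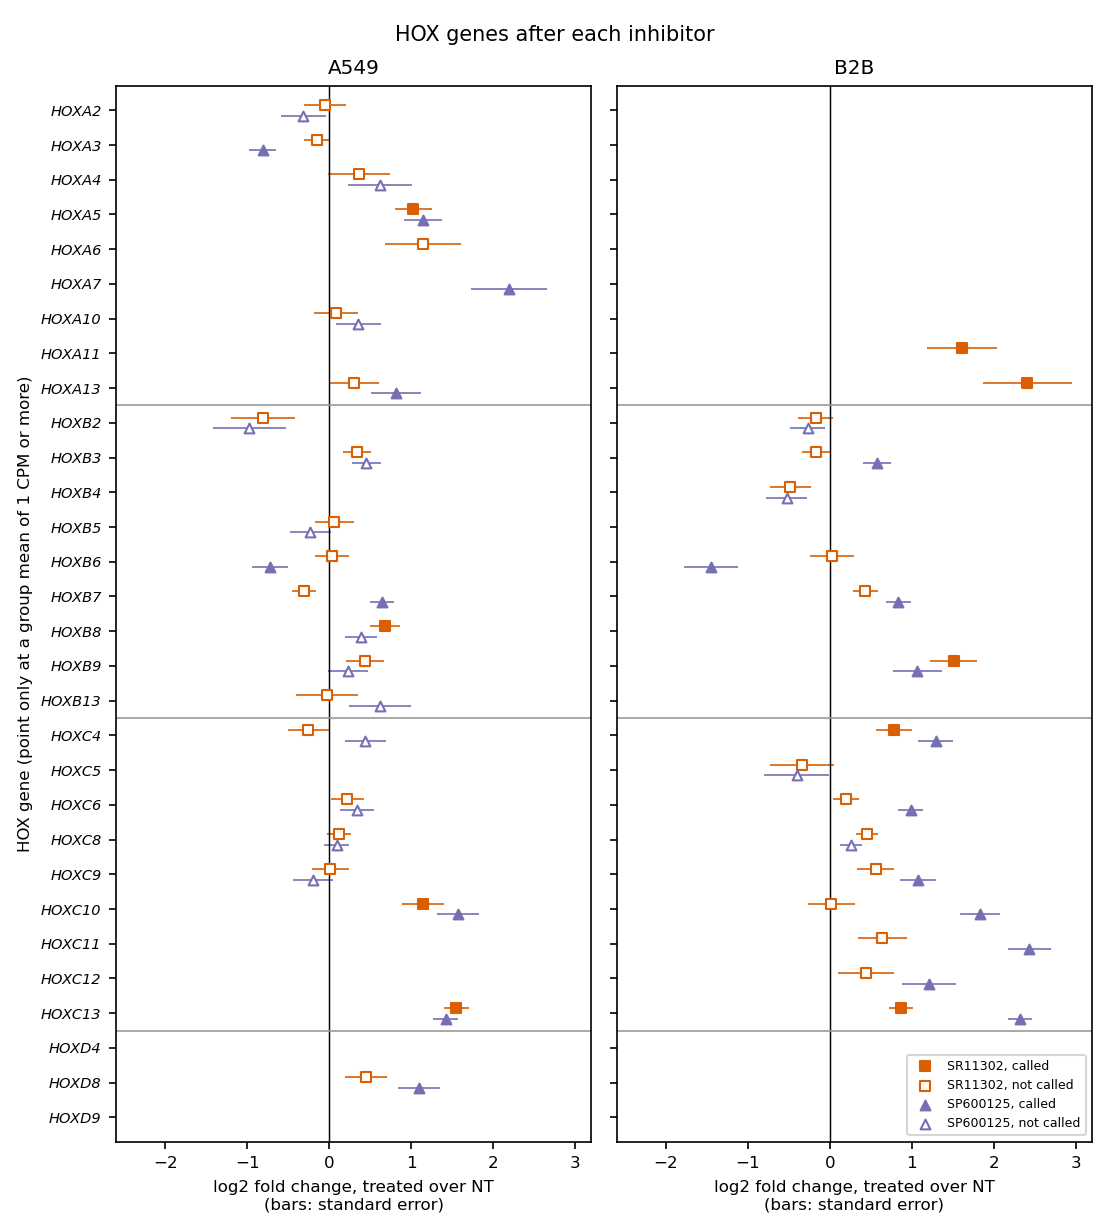
Log2 fold change of treated over NT cells (horizontal axis, bars: standard error) in A549 and B2B, for tested HOX genes averaging 1 CPM or more in either group compared. Filled symbols were called. HOXC13 is filled to the right in all 4 comparisons, and in B2B the SP600125 triangles of HOXC9 to HOXC13 lie between 1.07 and 2.44.

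HOXC13 was the 1 member called in all 4 treatment comparisons, and it was higher in each. It had 18.9 and 15.7 CPM in A549_SR11302, 15.1 and 16.5 CPM in A549_SP600125, and 6.17 and 5.63 CPM in A549_NT. In B2B it had 11.4 and 12.5 CPM in B2B_SR11302, 34.1 and 31.0 CPM in B2B_SP600125, and 6.61 and 6.43 CPM in B2B_NT. No treated library overlapped the NT libraries of its line. The log2 fold changes were 1.55 ± 0.15 (A549_SR11302), 1.42 ± 0.16 (A549_SP600125), 0.87 ± 0.15 (B2B_SR11302) and 2.32 ± 0.15 (B2B_SP600125), with edgeR adjusted p of 6.38e-06, 5.81e-06, 0.00089 and 6.08e-08. The interaction, which subtracts the B2B effect from the A549 effect, was -0.90 ± 0.21 for SP600125 (adjusted p = 0.00754) and 0.68 ± 0.21 for SR11302 (adjusted p = 0.0454). Between the lines, HOXC13 was higher in A549 under SR11302 (0.53 ± 0.14) and lower under SP600125 (-1.04 ± 0.14). The call between the lines under SR11302 was lost without A549_SR11302 replicate 1 (0.40) or B2B_SR11302 replicate 1 (0.47) and with library size as the only scaling (0.45), since the value then lay under 0.5.

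In B2B, SP600125 raised every member at the 5′ end of HOXC, from HOXC10 to HOXC13. HOXC11 had 5.93 and 5.36 CPM in B2B_SP600125, against 1.15 and 0.936 CPM in B2B_NT (2.44 ± 0.27, edgeR adjusted p = 6.14e-06). HOXC10 had 4.68 and 4.26 CPM in B2B_SP600125, against 1.15 and 1.34 CPM in B2B_NT (1.83 ± 0.25). HOXC12 had 3.74 and 2.56 CPM in B2B_SP600125, against 1.34 and 1.38 CPM in B2B_NT (1.21 ± 0.33). In each case the libraries of the groups did not overlap. The HOXC12 call was lost without B2B_NT replicate 1 (1.19), B2B_NT replicate 2 (1.24) or B2B_SP600125 replicate 1 (0.87). It was also lost with DESeq2 (1.19, DESeq2 adjusted p = 0.0646).

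Of the antisense RNAs of that end, HOTAIR and HOXC13-AS rose as well, while HOXC-AS3 had no read in B2B_SP600125 and 1 read in the B2B_NT group and was not tested. HOTAIR, a long noncoding RNA known for binding Polycomb complexes whose gene reaches from within HOXC11 toward HOXC12 on the opposite strand (chromosome 12, 53962308 to 53974956), had 9.41 and 8.95 CPM in B2B_SP600125, against 2.35 and 2.65 CPM in B2B_NT (1.87 ± 0.21). HOXC13-AS, which overlaps 7.30% of the HOXC13 exons, had 12.1 and 8.76 CPM in B2B_SP600125, against 1.39 and 1.34 CPM in B2B_NT (2.93 ± 0.25). Both were also higher in A549_SP600125, from low levels. HOTAIR had 0.596 and 0.758 CPM there, against 0.0556 and 0.106 CPM in A549_NT (2.96 ± 0.60), and HOXC13-AS had 1.57 and 1.52 CPM, against 0.222 and 0.478 CPM in A549_NT (2.11 ± 0.42).

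**Figure D4:**
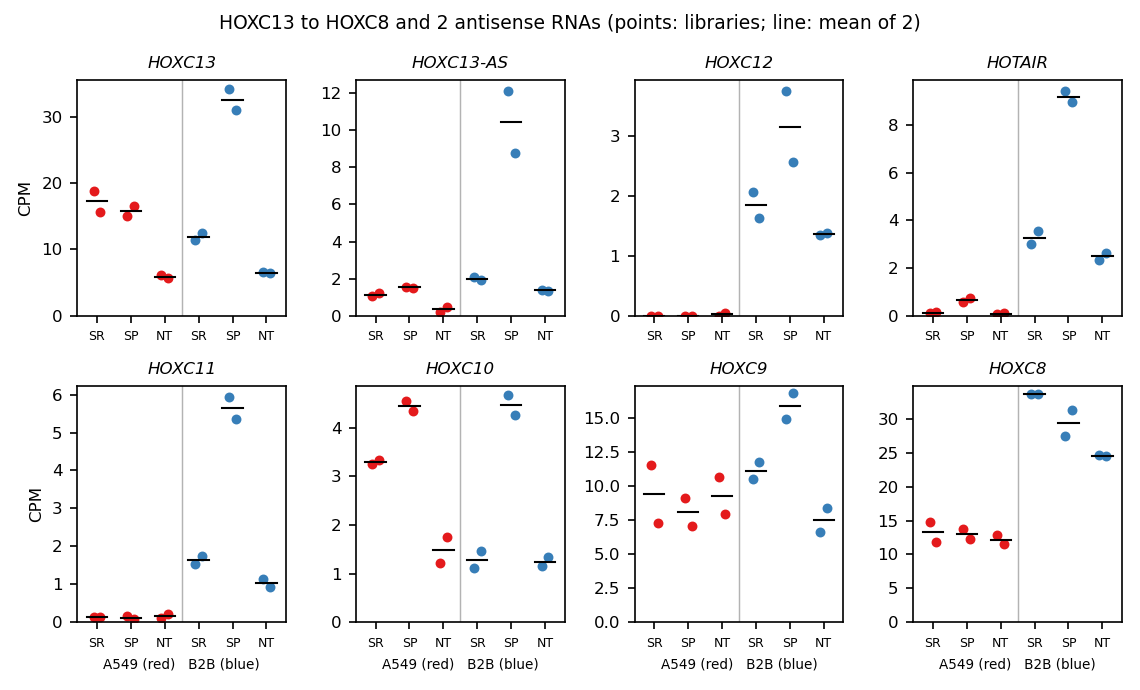
CPM (vertical axes, from 0) of HOXC13 to HOXC8 and the antisense RNAs HOXC13-AS and HOTAIR in the libraries of A549 (red) and B2B (blue) under SR11302 (SR), SP600125 (SP) and NT, with points for libraries and lines for means of 2. The B2B SP600125 points stand above the B2B NT points in every panel, least in HOXC8 (27.5 and 31.3 against 24.6 and 24.5 CPM).

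HOXC9, HOXC6 and HOXC4 also rose in B2B_SP600125. HOXC9 had 14.97 and 16.9 CPM in B2B_SP600125, against 6.66 and 8.39 CPM in B2B_NT (1.07 ± 0.22). HOXC6 had 31.0 and 24.8 CPM in B2B_SP600125, against 13.6 and 14.6 CPM in B2B_NT (0.99 ± 0.16). HOXC4 had 10.4 and 9.92 CPM in B2B_SP600125, against 4.31 and 3.99 CPM in B2B_NT (1.29 ± 0.22). Each of these 3 was higher in both treated libraries than in both NT libraries. HOXC8 (0.26 ± 0.14) and HOXC5 (-0.40 ± 0.40) were not called. HOXC5 shares a RefSeq start with HOXC4, while its GENCODE start lies 16.1 kb from that of HOXC4. In HOXB, HOXB7 had 18.7 and 17.6 CPM in B2B_SP600125, against 8.81 and 11.5 CPM in B2B_NT (0.83 ± 0.15).

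Some calls on low or close values in B2B_SP600125 were lost when a single library was left out. The HOXB8 call was also lost with DESeq2 (1.65, DESeq2 adjusted p = 0.059). HOXB3 (0.58 ± 0.17) was lost without B2B_NT replicate 1 (0.56, edgeR adjusted p = 0.0597) or B2B_SP600125 replicate 1 (0.54, adjusted p = 0.0623). HOXB9 (1.07 ± 0.30), with 2.96 and 5.23 CPM in B2B_SP600125 against 1.68 and 2.16 CPM in B2B_NT, was lost without B2B_NT replicate 1 (0.91, adjusted p = 0.0593) or B2B_SP600125 replicate 2 (0.62, adjusted p = 0.133). HOXB8, with 0.468 and 0.365 CPM in B2B_SP600125 against 0.0958 and 0.163 CPM in B2B_NT, was lost without B2B_NT replicate 1 (1.33, adjusted p = 0.135), B2B_NT replicate 2 (2.06, adjusted p = 0.0582) or B2B_SP600125 replicate 1 (1.39, adjusted p = 0.164). These 3 calls were less stable than those of HOXC10, HOXC11 and HOXC13, which no setting removed. Leaving out a library leaves 1 in its arm, so a lost call need not mean a changed estimate, as in HOXB3.

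The members that fell in B2B_SP600125 were of HOXA and HOXB. HOXB6 had 0.676 and 0.913 CPM in B2B_SP600125, against 2.16 and 2.16 CPM in B2B_NT (-1.45 ± 0.33, edgeR adjusted p = 0.00222), a call that held under every setting. HOXB5 had 0.312 and 0.669 CPM in B2B_SP600125, against 1.05 and 0.936 CPM in B2B_NT (-1.04 ± 0.41). Its call was lost without either B2B_NT library (-0.96 and -1.13) or without B2B_SP600125 replicate 1 (-0.60). The HOXB5 call was also lost with DESeq2 (-1.07, DESeq2 adjusted p = 0.083), library size only, the replicate block and only the libraries compared. HOXA3 was near the limit of counting. It had 3 reads in B2B_SP600125 and 27 in B2B_NT, a ratio of 0.142 (95% counting interval 0.0275 to 0.46), and was lost without B2B_SP600125 replicate 1 (-1.70, adjusted p = 0.0506). The interval covers counting error only.

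In A549, SP600125 lowered HOXA3 and HOXB6 and raised other HOXA genes. HOXA3 had 30.7 and 28.3 CPM in A549_SP600125, against 53.0 and 50.4 CPM in A549_NT (-0.81 ± 0.17, edgeR adjusted p = 0.000899). HOXB6 had 4.99 and 6.48 CPM in A549_SP600125, against 10.4 and 8.66 CPM in A549_NT (-0.73 ± 0.22). The HOXB6 call was lost without A549_NT replicate 1 (-0.59, adjusted p = 0.0979) or A549_SP600125 replicate 1 (-0.55, adjusted p = 0.118). HOXB-AS3, an RNA antisense to HOXB5 and HOXB6, was lower as well, with 2.16 and 2.69 CPM in A549_SP600125, against 6.28 and 5.95 CPM in A549_NT (-1.33 ± 0.23), and in B2B_SP600125 (-1.44 ± 0.47).

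HOXA5 and HOXC10 were higher after both inhibitors in A549. HOXA5 had 8.01 and 9.25 CPM in A549_SR11302, 9.16 and 9.65 CPM in A549_SP600125, and 4.84 and 3.66 CPM in A549_NT (1.02 ± 0.23 under SR11302 and 1.15 ± 0.23 under SP600125). The HOXA5 call under SR11302 was lost without A549_NT replicate 2 (0.84, edgeR adjusted p = 0.0526). HOXC10 had 3.25 and 3.35 CPM in A549_SR11302, 4.54 and 4.34 CPM in A549_SP600125, and 1.22 and 1.75 CPM in A549_NT (1.14 ± 0.25 and 1.57 ± 0.26). Its call under SR11302 was lost without A549_NT replicate 1 (0.91, adjusted p = 0.0547). No treated library of HOXA5 or HOXC10 overlapped the A549_NT libraries.

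HOTAIRM1, an RNA on the opposite strand at the 3′ end of HOXA, was higher in A549_SR11302 (8.98 and 9.12 CPM, against 5.06 and 4.83 CPM in A549_NT, 0.87 ± 0.20). In A549_SP600125 it had 6.04 and 6.48 CPM and was not called (0.34 ± 0.21).

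Other members rose in A549 under 1 inhibitor and were not called under the other, and the inhibitors were not tested against each other. HOXA7 had 2.01 and 2.27 CPM in A549_SP600125, 0.631 and 0.335 CPM in A549_SR11302, and 0.556 and 0.372 CPM in A549_NT (SP600125 over NT 2.20 ± 0.46). HOXA-AS3, the RNA that overlaps HOXA7, had 0.447 and 0.345 CPM in A549_SP600125, against 0.0556 and 0.0531 CPM in A549_NT. HOXD8 had 13.3 and 10.1 CPM in A549_SP600125, against 5.28 and 5.63 CPM in A549_NT (1.10 ± 0.26). HOXB7 had 33.5 and 30.9 CPM in A549_SP600125, against 21.3 and 20.02 CPM in A549_NT (0.64 ± 0.14). These 3 genes were higher in both libraries, and no setting removed the calls. HOXA13 had 4.99 and 6.89 CPM in A549_SP600125, against 3.11 and 3.66 CPM in A549_NT (0.81 ± 0.31). Its call was lost without A549_NT replicate 1 (0.70), A549_NT replicate 2 (0.93) or A549_SP600125 replicate 2 (0.56). The HOXA13 call was also lost with DESeq2 (0.80, DESeq2 adjusted p = 0.0787). HOXB8 was called only under SR11302 in A549, with 12.7 and 10.5 CPM in A549_SR11302, against 7.84 and 6.64 CPM in A549_NT (0.68 ± 0.19), and was lost without A549_NT replicate 2 (0.57, adjusted p = 0.11) or A549_SR11302 replicate 1 (0.54, adjusted p = 0.0523).

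SR11302 in B2B raised HOXB9 and a pair of 5′ HOXA genes. HOXB9 had 4.32 and 6.87 CPM in B2B_SR11302, against 1.68 and 2.16 CPM in B2B_NT (1.51 ± 0.29, edgeR adjusted p = 0.00154), and no setting removed the call. HOXA13 had 1.36 and 1.01 CPM in B2B_SR11302, against 0.383 and 0.0814 CPM in B2B_NT (2.41 ± 0.54), a call lost without B2B_NT replicate 2 (1.63, adjusted p = 0.066). HOXA11 had 1.27 and 1.01 CPM in B2B_SR11302, against 0.335 and 0.407 CPM in B2B_NT (1.61 ± 0.43). Its call was lost without B2B_NT replicate 1 (1.49), B2B_NT replicate 2 (1.76) or B2B_SR11302 replicate 1 (1.43). The HOXA11 call was also lost with DESeq2 (1.61, DESeq2 adjusted p = 0.102). HOXC4 had 6.17 and 8.17 CPM in B2B_SR11302, against 4.31 and 3.99 CPM in B2B_NT (0.78 ± 0.22), and was lost without B2B_NT replicate 1 (0.84, adjusted p = 0.0676), B2B_NT replicate 2 (0.73, adjusted p = 0.109) or B2B_SR11302 replicate 2 (0.58, adjusted p = 0.134). HOXB5 was the 1 member that fell, with 0.329 and 0.338 CPM in B2B_SR11302, against 1.05 and 0.936 CPM in B2B_NT (-1.56 ± 0.42). It was lost without B2B_NT replicate 1 (-1.47, adjusted p = 0.0695) or either B2B_SR11302 library (-1.53, adjusted p = 0.0773, and -1.57, adjusted p = 0.0601).

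The effect of an inhibitor differed between the lines for some members, for SR11302 at close to the share of all genes tested. For SP600125, 4 of 31 were called in the interaction (background 25.2%, with 12.1% higher and 13.1% lower in A549), among them HOXC9, HOXC11 and HOXC13. For SR11302, 5 were called (background 15.8%, with 8.34% higher and 7.41% lower in A549): HOXA13, HOXB5, HOXB7, HOXC4 and HOXC13. HOXC9 was the SP600125 case outside HOXC13 with ample reads in both lines. It had 9.16 and 7.10 CPM in A549_SP600125, against 10.7 and 7.96 CPM in A549_NT, and its interaction was -1.27 ± 0.33 (edgeR adjusted p = 0.0115). The HOXC9 interaction was lost without A549_NT replicate 1 (-1.05, adjusted p = 0.0637), A549_SP600125 replicate 2 (-1.10, adjusted p = 0.0621) or B2B_NT replicate 1 (-1.12, adjusted p = 0.0516). The 5 SR11302 interactions had adjusted p between 0.0288 and 0.0494, and each of the 5 was lost without A549_NT replicate 1 and without A549_NT replicate 2.

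Several HOX cofactors were lower in A549_NT than in B2B_NT. MEIS1 had 3.89 and 3.66 CPM in A549_NT, against 43.0 and 46.9 CPM in B2B_NT (-3.57 ± 0.14). Of 9 cofactors tested, 5 were called lower in A549_NT (26.5% of all genes tested): MEIS1, PBX2 (-0.74 ± 0.12), PBX3 (-1.16 ± 0.12), PKNOX1 (-1.18 ± 0.13) and PBXIP1 (-1.09 ± 0.17). PBXIP1, which encodes a PBX-binding protein, was called higher after both inhibitors in both lines, from 0.80 ± 0.16 in B2B_SR11302 to 1.80 ± 0.17 in A549_SP600125.

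Among other regulators of the clusters, Polycomb and Trithorax genes showed no single direction between the lines, while most retinoid genes were higher in A549_NT. Of 30 Polycomb genes tested, 7 were called higher and 10 lower in A549_NT, where 30.4% of all genes tested were called higher and 26.5% lower, among them CBX2 (1.71 ± 0.16) and CBX7 (-1.98 ± 0.17). Against that same background, 6 of 23 Trithorax and MLL complex genes were higher and 5 lower. Of 17 retinoid genes, 11 were higher and 3 lower in A549_NT (30.4% and 26.5% of all genes tested), among them TGM2, a transglutaminase induced by retinoic acid (5.33 ± 0.18). The median log2 fold change of the 17 was 2.68, against 0.05 over all genes tested. SP600125 lowered 11 and raised 2 Polycomb genes in A549 (PHF19 -1.47 ± 0.17, EZH1 1.20 ± 0.12), where 25% of all genes tested were lower and 23.9% higher, and raised 7 and lowered 6 in B2B, where 21.2% were higher and 22.6% lower. CDX2, an activator of HOX genes in the hindgut, averaged 0.542 CPM in A549_NT and had no read in B2B_NT.

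The neighbours of the HOXA cluster followed its line difference in part. SKAP2 (4.11 ± 0.21) and SNX10 (6.81 ± 0.43), on the 3′ side of the cluster, were higher in A549_NT, as were MTX2 beside HOXD1 (1.52 ± 0.12) and the antisense RNAs HOXA-AS2 (3.84 and 3.24 CPM in A549_NT and no read in B2B_NT) and HAGLR (5.17 and 3.66 CPM in A549_NT and no read in B2B_NT). Beyond the 5′ end of HOXA, HIBADH was higher (0.88 ± 0.10) and JAZF1 lower (-1.16 ± 0.19). Of 12 tested RNAs antisense to the clusters, 5 were called higher and 4 lower in A549_NT (30.4% and 26.5% of all genes tested).

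The clusters also hold microRNA genes of the miR-10 and miR-196 families. The mature sequences of the miR-196 family are shown because its loci lie in 3 of the clusters and are described together here (RefSeq, GRCh38.p14, seed in capitals).
miR-196a-5p: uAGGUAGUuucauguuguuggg
miR-196b-5p: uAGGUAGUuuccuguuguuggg
Both share a seed and differ by A12C, counted from 1 at the 5′ end, with the miR-196a base first. Libraries of polyadenylated RNA do not measure mature microRNAs. Of the miR-10 and miR-196 loci listed (MIR10A, MIR10B, MIR196A1, MIR196A2 and MIR196B) only MIR196A1, inside HOXB, gave reads, with 1 and 3 in A549_SR11302, 2 and 0 in A549_SP600125 and 7 and 9 in A549_NT, against 0 and 0 in B2B_SR11302, 1 and 1 in B2B_SP600125 and 0 and 0 in B2B_NT.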

How the data were processed

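Polyadenylated RNA of 12 libraries (6 groups of 2, A549 or B2B with SR11302, SP600125 or NT) was sequenced. The authors aligned the reads to hg38 with STAR 2.7.10a and deposited raw read counts per gene symbol made with HTSeq 1.99.2. Neither the annotation nor the strand setting is named in the sources used here. The libraries held 13969766 to 24917854 reads in genes. Rows for reads in no gene were left out of library sizes.

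Counts were filtered with filterByExpr, scaled by TMM and fitted in 1 model over the 12 libraries with edgeR 4.0.16 (R 4.3.3), with 6 residual degrees of freedom, and tested with the quasi-likelihood F test, Benjamini-Hochberg adjusted over 16373 genes. The SE is the log2 fold change divided by the square root of F. Calls needed an adjusted p below 0.05 together with a log2 fold change of 0.5 or more in size. The 9 comparisons were A549 against B2B under each treatment, each inhibitor against NT in each line, and the 2 interactions (effect in A549 minus effect in B2B). The fit was tested on simulated data. Where a group had no read, the fold was bounded with a floor of 3 reads over the group. P-values measure the spread between libraries, which may be technical.

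The rule was to name every HOX symbol, with values per library where a group mean reached 1 CPM. Of other lists, up to 4 called genes with the largest change per comparison could be named, besides HOX cluster antisense RNAs, cofactors and flanking genes. Some members and listed genes are not reported here by name, though the counts include them. The members and lists were chosen with earlier results of these data known. Alternatives were RLE size factors, library size only, no filter, at least 1 CPM in 2 libraries, DESeq2 1.42.0, only the libraries compared, a replicate block, leaving out libraries, and no fold minimum. Crossed pairings of the replicate numbers were added after seeing the data. Positions are GENCODE v44 (hg38) and sequences RefSeq GRCh38.p14. Tables and figures used pandas 2.3.3 and matplotlib 3.10.9.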

Additional observations from a re-analysis of the deposited data

Results flagged for a closer look

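In the 8 cases named here the effect of an inhibitor on a HOX gene differed between the lines, by the interaction in edgeR's quasi-likelihood test (log2 effect in A549 minus log2 effect in B2B, ± SE). For SP600125, 4 of 31 tested members differed, where 25.2% of all genes tested did, and for SR11302 5 of 31, where 15.8% did. For SP600125 they included HOXC11 (-3.01 ± 0.88, adjusted p = 0.0225), HOXC9 (-1.27 ± 0.33, adjusted p = 0.0115) and HOXC13 (-0.90 ± 0.21, adjusted p = 0.00754). HOXC11 had 3 reads in A549_SP600125, so its value rests on few reads in that line. The HOXC11 difference was lost without A549_NT replicate 2 (-2.48, adjusted p = 0.212), A549_SP600125 replicate 2 (-2.56, adjusted p = 0.0917) or B2B_NT replicate 2 (-2.86, adjusted p = 0.0528). HOXC13 kept its call without any single library, but lost it when the second NT library of both lines was left out (-0.95).

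For SR11302 the 5 cases were HOXA13 (-2.11 ± 0.63, adjusted p = 0.0367), HOXB5 (1.62 ± 0.49, adjusted p = 0.0364), HOXB7 (-0.74 ± 0.21, adjusted p = 0.0288), HOXC13 (0.68 ± 0.21, adjusted p = 0.0454) and HOXC4 (-1.03 ± 0.33, adjusted p = 0.0494). Each of the 5 was lost without A549_NT replicate 1 and without A549_NT replicate 2. HOXB7 had 17.7 and 15.7 CPM in A549_SR11302, against 21.3 and 20.02 CPM in A549_NT, and 14.4 and 13.1 CPM in B2B_SR11302, against 8.81 and 11.5 CPM in B2B_NT.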

How the results depend on the processing

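Of 126 calls on HOX genes in the 9 comparisons, 96 held under every setting in which the gene was tested. Another 30 were lost under at least 1, and 0 reversed. Of the 81 calls between the lines, 76 held in this sense. A gene that a filter left untested was not counted as lost. Between the lines under NT there were 25 calls, but 21 with only the libraries compared and 23 at 1 CPM in 2 libraries. The count of HOX genes called left the range within 1.5 times of its value as follows. The SR11302 interaction gave 5 calls, but 2 with DESeq2, 1 with only the libraries compared, 3 with the replicate block and 1 without both second NT libraries. Without both second NT libraries, SR11302 gave 3 calls in A549 and 2 in B2B, and the SP600125 interaction gave 1. Without the filter on low counts the SP600125 interaction gave 7 calls. Leaving out 1 library gave 24 to 27 calls between the lines under NT, 30 to 32 under SR11302 and 28 to 32 under SP600125. It gave 3 to 7 for SR11302 and 8 to 11 for SP600125 in A549, and 3 to 5 for SR11302 and 9 to 13 for SP600125 in B2B. It gave 0 to 6 for the SR11302 interaction and 2 to 5 for the SP600125 interaction. With a lone library left in an arm, that library was assumed to vary like the other groups. Deviations of same-numbered libraries correlated from -0.617 (A549_SR11302 with B2B_SR11302) to 0.532 (A549_NT with A549_SR11302). Not every correlation was above 0.1, so the numbers were not taken to pair the samples. With the replicate block there were 24, 28 and 28 calls between the lines under NT, SR11302 and SP600125, 5 and 10 in A549 and 6 and 13 in B2B under SR11302 and SP600125, and 3 and 4 interactions. Crossing the pairing, an alternative chosen after seeing the data, gave 25 calls between the lines under NT, 28 under SR11302 and 10 for SP600125 in A549. With library size as the only scaling, the median of all genes moved to 0.14 for SR11302 in A549 and 0.15 for SP600125 in B2B. At this depth members under 1 CPM rest on few reads.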
